A study of Mus musculus with 2 samples.

Results

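Cytotoxic CD4 T cells of the inflamed mouse colon were described here as the cells that the authors' deposited annotation names CD4 CTL, which is their cluster 2 at resolution 0.4. There were 3855 such cells among 18860 colonic CD4 T cells (20.4%), 818 in KO mice and 3037 in WT mice. All recipients were Rag-/- mice, which lack lymphocytes with rearranged receptors, so the T cells sequenced are taken to come from the transfer. WT mice (HT7 to HT12, n = 6) had received naive or CD4+ CD45RBhigh CD25- T cells, and KO mice (HT1 to HT6, n = 6) had received CD4+ T cells deficient in BCL-6, a transcriptional repressor best known for follicular helper T cells. Transfer into such hosts is a model of colitis. The labels give neither the age of the mice, the time after transfer, the way BCL-6 was removed nor the number of donors, and they state the CD45RBhigh CD25- gate for WT donor cells only. TCRb+CD4+ cells were sorted from each colon, tagged with 1 hashtag antibody per mouse (which gives the HT names), pooled and sequenced as 1 library with chemistry that reads the 5′ end of transcripts. The mouse was the replicate in every test.

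CD4 T cells are mostly helpers, but some acquire the granule machinery of killer cells: granzymes, which are proteases, and perforin, which lets them into a target. In the intestine such cells are known among the lymphocytes of the epithelium, where they can carry CD8 alpha homodimers beside CD4 and are held by the integrin CD103. The T-box factors EOMES and T-bet drive this programme, and the chemokines CCL3, CCL4 and CCL5 are typical products of it.

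KO mice held 69, 51, 166, 216, 154 and 162 cytotoxic cells (HT1 to HT6) and WT mice 584, 518, 490, 390, 649 and 406 (HT7 to HT12), with 105656 to 1766111 summed UMIs (molecules counted by their unique molecular identifiers) per mouse. HT1 and HT2 had the fewest. These numbers were not compared between genotypes, because genes that define the cluster, such as Ccl5, Gzmk and Eomes, differed between them within the cluster. The median cytotoxic cell had 2206 ± 217 UMIs in KO mice and 2468 ± 185 in WT mice (SD over 6 mice each; p = 0.0498 by exact permutation, 0.14 when adjusted over 3 measures). Genes per cell were 1083 ± 69.0 and 1133 ± 59.2 (adjusted exact p = 0.223) and the mitochondrial share was 0.833% ± 0.0412 and 0.882% ± 0.0445 (adjusted exact p = 0.14). No cell barcode could be shared between libraries, as there was 1.

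The markers bore out the name, as a description and not a test, since the clusters were made from the same genes. In CPM (UMIs summed per mouse and scaled to the same total, then averaged over 12 mice), Eomes stood at 107 in cytotoxic cells and at 11.8 in the next subset, cycling cells, a ratio of 9.12. Ccl5 was the most abundant marker at 11705 CPM against 2013 in the next, an unnamed cluster that the authors number 1, or 5.82 times as much. Gzmk, a granzyme with tryptase-like activity, stood at 277 CPM against 68.9 in cycling cells, a ratio of 4.02. Each of these 3 genes was highest in the cytotoxic subset in 12 of 12 mice among the subsets other than regulatory cells, of which several mice had few. Gzma, another tryptase-like granzyme, followed at 733 against 343 CPM (2.14 times, 10 of 12 mice). Nkg7, a granule membrane protein of killer cells, was high here at 2345 CPM but also reached 1342 CPM in unnamed 1, a ratio of 1.75.

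Beyond the 5 markers, the genes with the highest ratio to the next subset were again products of killer cells. Ccl4 reached 962 CPM against 136 (7.06 times), Ccl3 117 against 26.1 (4.47 times) and Xcl1, the ligand of XCR1 on cross-presenting dendritic cells, 155 against 40.9 (3.80 times). The phosphatase gene Dusp2 (2.31 times) and the orphan nuclear receptor gene Nr4a2 (2.20 times), both early targets of antigen receptor signalling, were next with the receptor Cd160 (2.11 times). Dnajb1 (2.11 times) and Hsph1 (1.73 times), which encode heat shock cochaperones, also stood in this group, as did Cd7 (1.77 times) and Tbx21, the gene of T-bet (1.66 times).

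**Figure D1:**
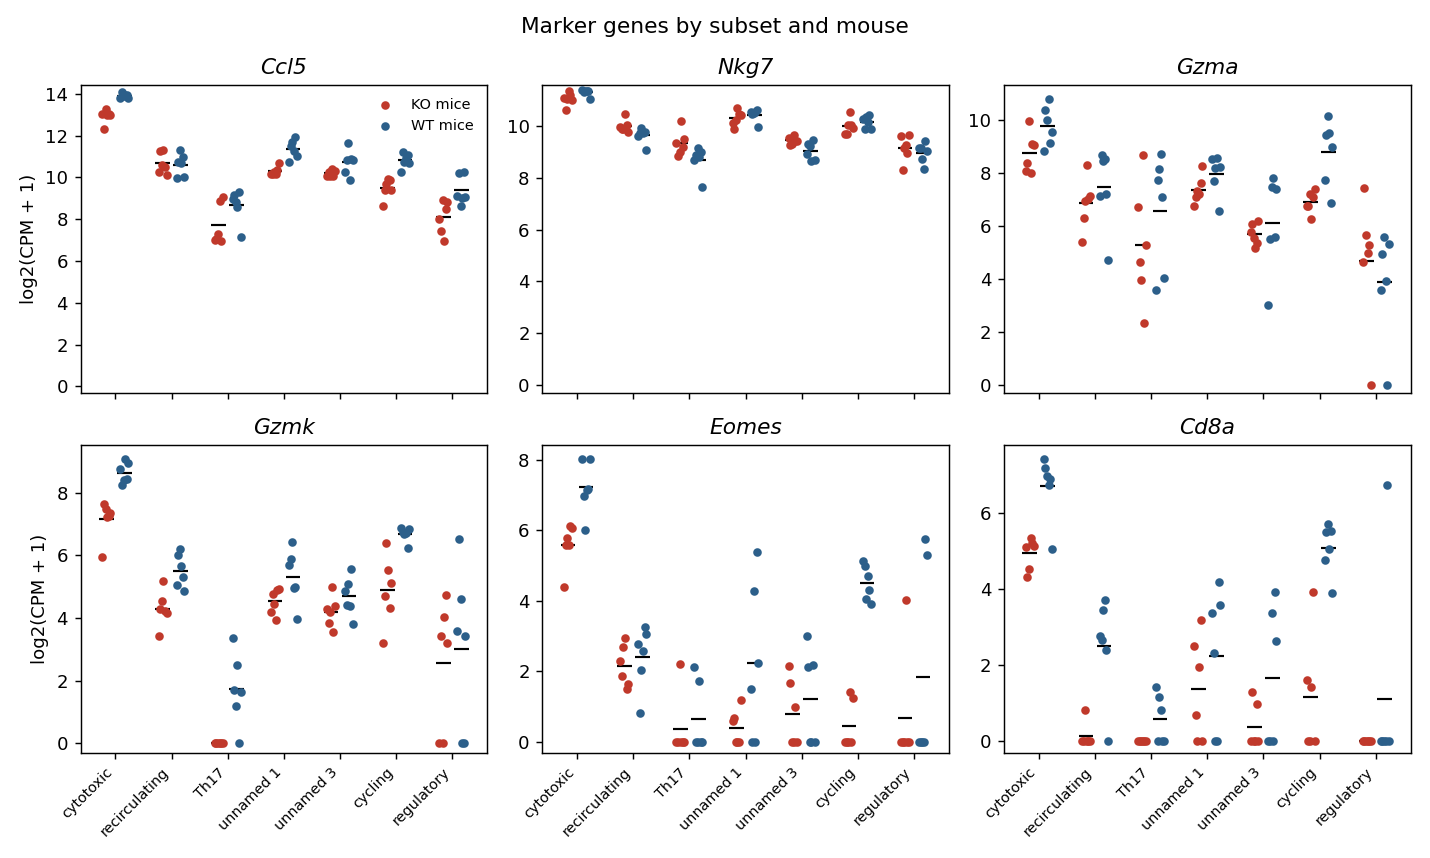
Levels of the 5 marker genes and Cd8a in every subset (x axis), as log2(CPM + 1) of the UMIs summed per mouse (y axis), with 1 point per mouse, KO in red and WT in blue, and a black line at the mean of each genotype's log2 values. Eomes separates the cytotoxic subset most (107 CPM on average against at most 11.8 elsewhere), while Nkg7 is also high in unnamed 1.

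Granzyme B did not follow the same order. Gzmb stood at 1734 CPM in cytotoxic cells and at 4692 CPM in regulatory cells, and at 438 to 925 CPM elsewhere. Perforin (Prf1) was at 41.8 CPM, with at most 10.0 CPM in any other subset. Interferon gamma (Ifng), the main cytokine of type 1 helper cells, was at 767 CPM against 1681 CPM in unnamed 1, and Il17a at 2.87 CPM against 1079 CPM in Th17 cells. The gene of CD103, Itgae, stood at 177 CPM, above 32.8 to 76.3 CPM in the other subsets except regulatory cells (412 CPM).

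Markers of other cell types were low except gamma chain genes, Cd8a and, in WT mice, Igkc. Cd4 was at 472 CPM, within the 359 to 594 CPM of the other subsets. Cd8a was at 73.0 CPM against at most 19.2 CPM elsewhere, while Cd8b1, the beta chain that conventional CD8 T cells need for the heterodimer, stood at 3.48 CPM and at 2.09 to 6.90 CPM elsewhere. Summed over the markers found in the table, natural killer and innate lymphoid genes (3 of 6) came to 0 to 12.7 CPM in KO and 2.01 to 10.6 in WT mice, epithelial genes (5 of 6) to 2.97 to 18.9 and 5.86 to 14.5, and myeloid genes (5 of 5) to 9.46 to 27.2 and 7.50 to 16.4. Gamma delta genes (3 of 4) came to 46.9 to 127 CPM in KO and 64.1 to 88.6 CPM in WT mice. Most of that was Tcrg-C2, a constant segment of the gamma chain, at 62.0 CPM on average against at most 37.5 CPM in another subset (unnamed 1), while Trdc, the constant segment of the delta chain, was at 0.892 CPM. The variable segment Trgv2 stood at 250 CPM against at most 161 CPM elsewhere, with a UMI in 27.2% ± 4.92 of thinned KO and 25.5% ± 5.47 of thinned WT cells, and its difference between genotypes did not pass (-0.13 ± 0.16, adjusted p = 0.788). Gamma chain RNA also occurs in alpha beta T cells, and the cells were sorted as TCRb+. Igkc, the only B lineage marker of 4 in the table, moved with genotype, at 0 to 20.05 CPM in KO and 28.3 to 102.5 CPM in WT mice (log2 fold change -3.87 ± 0.56 SE, adjusted p = 0.000111). The sum of Cd8a and Cd8b1 did too, at 22.2 to 44.6 and 35.2 to 172 CPM. The part of either in the results below was not tested.

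Bcl6 itself (chromosome 16, 23965052 to 23988852, minus strand, GRCm38) did not separate the genotypes in cytotoxic cells. Its level was 53.5, 47.3, 59.3, 43.5, 38.7 and 31.8 CPM in HT1 to HT6 and 62.0, 35.9, 49.4, 59.3, 53.2 and 56.9 CPM in HT7 to HT12, with overlapping ranges (log2 fold change -0.30 ± 0.18, adjusted p = 0.503). Because reads come from the 5′ end and the deleted part is not stated, this level checks nothing about the labels, and directions below refer to the labels.

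Within the cytotoxic subset, 191 of 6601 tested genes (2.89%) differed between KO and WT mice by edgeR's quasi-likelihood test at an adjusted p under 0.05. Of all tested genes, 1.32% were higher in KO mice (87 genes) and 1.58% were lower (104 genes), and the median log2 fold change was -0.001. Both the counts and all later fold changes are KO over WT, with standard errors after the ± sign. The ranges of the 2 genotypes did not overlap for 99 of the called genes and for 168 of all tested genes (2.55%). Without HT1 and HT2, the mice with the fewest cells, 138 genes were called, 69 in each direction.

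Of the 5 markers of the subset, Ccl5, Gzmk and Eomes fell in KO mice, and Gzma and Nkg7 did not pass. Ccl5 (chromosome 11, 83525778 to 83530518) ranged from 5102 to 9836 CPM in KO mice with a median of 8329, and from 14086 to 17220 CPM in WT mice with a median of 15366. Every KO mouse lay below every WT mouse, and the log2 fold change was -0.98 ± 0.09 (adjusted p = 1.83e-07). The share of cells with a Ccl5 UMI, after thinning each cell to 1500 UMIs, was 83.2% ± 2.59 in KO and 95.5% ± 1.68 in WT mice. Most cytotoxic cells of KO mice thus held it, as cells of a cluster that Ccl5 helps to define. Th17 cells, which should lack much Ccl5, gave 16% and 21.2% at a median depth of 3396 UMIs against 2430 in cytotoxic cells. Thinned shares were also lower in KO than in WT mice in unnamed 1 (41.4% and 58.6%) and cycling cells (32.4% and 48.4%). In recirculating cells they ran the other way (44.8% and 40.3%). Thinning left out 85 KO and 248 WT cells with fewer UMIs.

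Gzmk (chromosome 13, 113171608 to 113225908, minus strand) ranged from 60.1 to 199 CPM in KO mice (median 156) and from 302 to 535 CPM in WT mice (median 384). The groups did not overlap, and Gzmk fell by 1.45 ± 0.16 on the log2 scale (adjusted p = 1.76e-06). A Gzmk UMI was found in 13.6% ± 3.42 of thinned KO cells and 31.7% ± 5.03 of thinned WT cells (17.5% and 40.7% without thinning), with at most 0.383% in Th17 cells. Cycling cells, the next highest in WT mice, gave 3.33% in KO and 9.78% in WT mice. Esm1, which encodes the secreted proteoglycan endocan, lies on the opposite strand inside the Gzmk locus (113209659 to 113218098) and fell with it, from a median of 128 to 49.2 CPM (-1.40 ± 0.25, adjusted p = 0.00109). The labels do not say whether counting used strand, so reads of Gzmk and Esm1 cannot be told apart with certainty.

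Eomes (chromosome 9, 118478212 to 118486132) was at 20.05, 47.3, 54.3, 47.1, 68.4 and 65.8 CPM in KO mice and at 257, 125, 62.9, 141, 143 and 257 CPM in WT mice. HT9, the lowest WT mouse, lay within the KO range, and the log2 fold change was -1.64 ± 0.31 (adjusted p = 0.00221). Gzma ranged from 257 to 993 CPM (median 431) in KO and from 456 to 1760 CPM (median 889) in WT mice and did not pass (-0.98 ± 0.28, adjusted p = 0.0625). The share of thinned cells with a Gzma UMI was close in the genotypes, at 16.5% ± 2.8 in KO and 17.5% ± 8.0 in WT mice. Gzma passed under several alternatives with every mouse kept, among them 1 cell per clone (-1.53, adjusted p = 0.00141), no filter on low counts (-1.04, adjusted p = 0.00718) and no receptor or immunoglobulin genes (-0.98, adjusted p = 0.0367). It also passed without some single mice: without HT3, the highest KO mouse, the value was -1.34 (adjusted p = 0.00789), without HT7 -1.12 (adjusted p = 0.0205) and without HT11 -1.09 (adjusted p = 0.0353). Nkg7 was at a median of 2141 CPM in KO and 2609 CPM in WT mice and did not pass either (-0.28 ± 0.08, adjusted p = 0.0629). It did without HT4 (-0.36, adjusted p = 0.0117) or without HT12 (-0.32, adjusted p = 0.0177). With every mouse kept, Nkg7 passed with no filter on low counts (-0.34, adjusted p = 0.0141) and with no receptor or immunoglobulin genes (-0.28, adjusted p = 0.0457). Here and below, passes of this kind are few: over the 27 named genes that did not pass, 35 of 603 alternatives did.

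**Figure D2:**
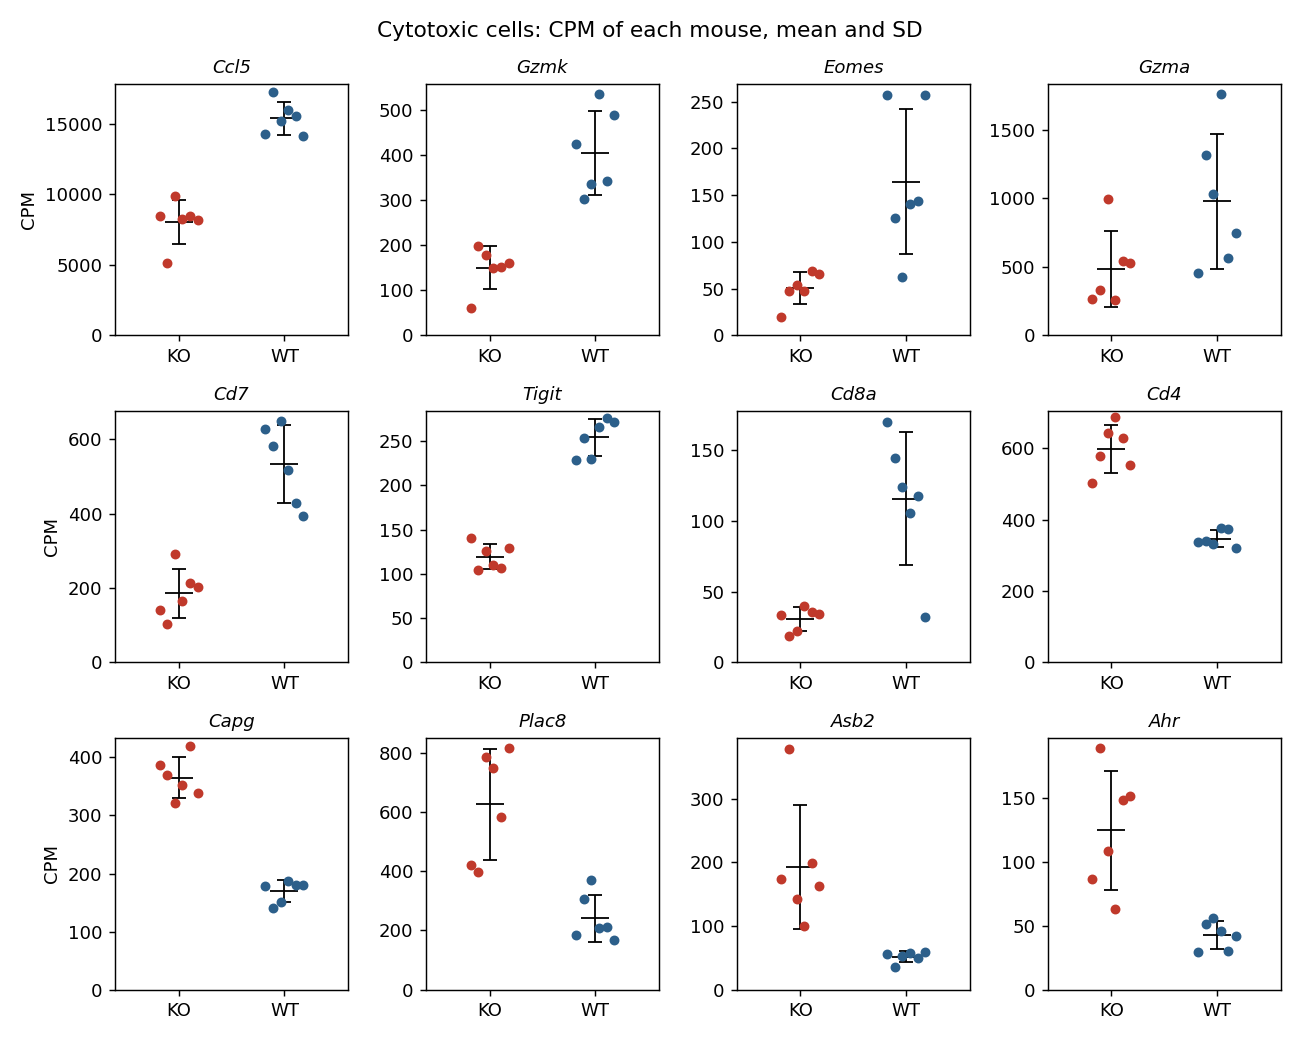
CPM in cytotoxic cells of each mouse (points, y axis) for selected genes, with the mean ± SD of each genotype (n = 6 KO and 6 WT mice). Ccl5, Gzmk and Cd7 of every KO mouse lie below every WT mouse and Cd4 above, while Eomes overlaps at HT9.

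Of 11 tested genes of the granule list, 2 fell and none rose, with a median log2 fold change of -0.24. The share to set beside this and every list below is that of all tested genes, of which 1.58% fell and 1.32% rose. The second to fall, besides Gzmk, was Cst7, the cystatin that restrains granule cathepsins, from a median of 213 to 166 CPM without overlap (-0.46 ± 0.10, adjusted p = 0.0074). That call was lost with 1 cell per clone (-0.42, adjusted p = 0.0999) and with equal numbers of cells per mouse (-0.34, adjusted p = 0.394). Gzmb was at a median of 1790 CPM in KO and 1653 CPM in WT mice (0.26 ± 0.18, adjusted p = 0.557), and Prf1 at 34.9 and 44.1 CPM (-0.24 ± 0.23, adjusted p = 0.719). Among 5 tested chemokines only Ccl5 passed, and the median was -0.33. Ccl4 ranged from 481 to 1089 CPM in KO and 543 to 1729 CPM in WT mice (-0.65 ± 0.23, adjusted p = 0.135). It passed without HT9 (-0.79, adjusted p = 0.0237). With every mouse kept, Ccl4 passed with 1 cell per clone (-1.01, adjusted p = 0.0042) and with no filter on low counts (-0.71, adjusted p = 0.0271). Ccl3 was at -0.33 ± 0.34 with all mice (adjusted p = 0.744) and had a single high KO mouse, HT4 at 272 CPM. It passed without HT4 (-1.28, adjusted p = 0.0268) and with equal numbers of cells per mouse (-1.91, adjusted p = 0.00893). Cxcl10, a CXCR3 ligand, was at 0.70 ± 0.26 (adjusted p = 0.173).

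Transcription factors of effector cells did not move as a block. Of 10 tested, Eomes and Zeb2, a repressor that acts with T-bet in terminal effectors, fell, none rose, and the median was -0.20. Zeb2 had medians of 34.6 CPM in KO and 65.9 CPM in WT mice (-0.94 ± 0.23, adjusted p = 0.0179). It lost the call without HT3 (-0.78, adjusted p = 0.0821), HT5 (-0.92, adjusted p = 0.0608) or HT6 (-0.89, adjusted p = 0.0601). The call was also lost with 1 cell per clone (-0.88, adjusted p = 0.0999) and without HT1 and HT2 (-0.92, adjusted p = 0.0684). Tbx21 was at 131 and 116 CPM (0.11 ± 0.14, adjusted p = 0.797) and Runx3 at -0.23 ± 0.10 (adjusted p = 0.287). Ikzf3, which encodes Aiolos, was at -0.34 ± 0.11 (adjusted p = 0.0824). It passed without HT1 (-0.39, adjusted p = 0.0476) and with no filter on low counts (-0.40, adjusted p = 0.0316).

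Receptors shared with natural killer cells gave 2 falls and no rise among 8 tested (median -0.10). Cd160, a receptor for HVEM, fell from a median of 255 to 155 CPM without overlap (-0.82 ± 0.15, adjusted p = 0.00116), and did not pass with equal numbers of cells per mouse (-0.84, adjusted p = 0.0705). Crtam, an adhesion receptor that marks CD4 cells with a cytotoxic fate, fell from 24.6 to 6.75 CPM, again without overlap (-1.66 ± 0.31, adjusted p = 0.00208). Klrk1, the gene of NKG2D, was at 0.95 ± 0.33 (adjusted p = 0.135), but HT8 at 69.6 CPM stood above the other WT mice and without it the value passed (1.42, adjusted p = 0.000937). Klrd1, the CD94 gene, was at 0.36 ± 0.27 (adjusted p = 0.618).

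In the T cell receptor complex, the calls were the coreceptors and Cd7. Of 12 tested genes, 1 rose and 2 fell (median 0.01). Cd4 (chromosome 6, 124864692 to 124888221) ranged from 501 to 686 CPM in KO mice (median 603) and from 322 to 378 CPM in WT mice (median 339), and it rose by 0.75 ± 0.08 on the log2 scale (adjusted p = 9.71e-07). No KO mouse came as low as any WT mouse. Cd8a (chromosome 6, 71373427 to 71379173) ran the other way, from 18.9 to 39.8 CPM in KO and 32.1 to 170 CPM in WT mice (-1.91 ± 0.32, adjusted p = 0.000587), and only HT12 of the WT mice fell inside the KO range. Thinned shares of cells with a UMI were 57.5% ± 4.31 and 38.6% ± 2.86 for Cd4 and 3.34% ± 0.953 and 10.0% ± 3.74 for Cd8a (at most 0.103% in Th17 cells). Cd7, an immunoglobulin-family receptor of T and natural killer cells, ranged from 104 to 291 CPM in KO and 395 to 650 CPM in WT mice (-1.47 ± 0.15, adjusted p = 7.65e-07). Cd28, the main costimulatory receptor, was at 0.31 ± 0.10 (adjusted p = 0.119) and passed without HT12 (0.38, adjusted p = 0.0379).

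Inhibitory receptors showed 2 falls among 6 tested and no rise (median -0.49). Tigit, which binds the poliovirus receptor CD155, was among the steadiest changes, at 104 to 140 CPM (median 118) in KO and 229 to 276 CPM (median 260) in WT mice (-1.14 ± 0.10, adjusted p = 9.43e-08). The other was Cd160, counted above as well. Lag3 was at -0.53 ± 0.25 (adjusted p = 0.322) and passed without HT3 (-0.96, adjusted p = 0.0264), a KO mouse at 64.2 CPM. It also passed with 1 cell per clone (-1.195, adjusted p = 0.0316). Entpd1, the ectoenzyme CD39, was at 0.61 ± 0.23 (adjusted p = 0.164). Trat1, an adaptor that steadies the receptor complex at the surface, is in no list and fell from a median of 252 to 116 CPM without overlap (-1.28 ± 0.14, adjusted p = 2.53e-06).

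Genes of stem-like and follicular cells, the lineages BCL-6 is best known for, gave 1 call in each list. Of all tested genes, 1.58% fell. Of 9 tested stem-like and naive-memory genes (12 listed) 1 fell and none rose (median -0.13): Satb1, a chromatin organizer, at -0.51 ± 0.13 (adjusted p = 0.0314), a call lost under 10 of its 23 alternatives. Lef1 was at -0.53 ± 0.15 (adjusted p = 0.0601) and passed without HT3 (-0.64, adjusted p = 0.0361) or HT9 (-0.57, adjusted p = 0.0413). It also passed with no filter on low counts (-0.59, adjusted p = 0.0241). Klf2 stood at -0.28 ± 0.17 (adjusted p = 0.513) and Il7r at -0.13 ± 0.09 (adjusted p = 0.555). Tcf7, whose protein TCF1 marks stem-like cells, was at 103 CPM in both genotypes by median (0.04 ± 0.14, adjusted p = 0.954). Of 9 follicular genes only 4 were tested. Cxcr5, Tox2 and Il21 did not pass the filter on counts, and Pou2af1 and Ascl2 were not among the genes counted. Of the 4 tested 1 fell (median -0.06): Sh2d1a, which encodes the adaptor SAP, from a median of 175 to 99.4 CPM (-0.81 ± 0.16, adjusted p = 0.00277), and it did not pass with equal numbers of cells per mouse (-0.77, adjusted p = 0.078). Icos (0.18 ± 0.10, adjusted p = 0.419) did not pass, nor did Maf (0.24 ± 0.19).

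**Figure D3:**
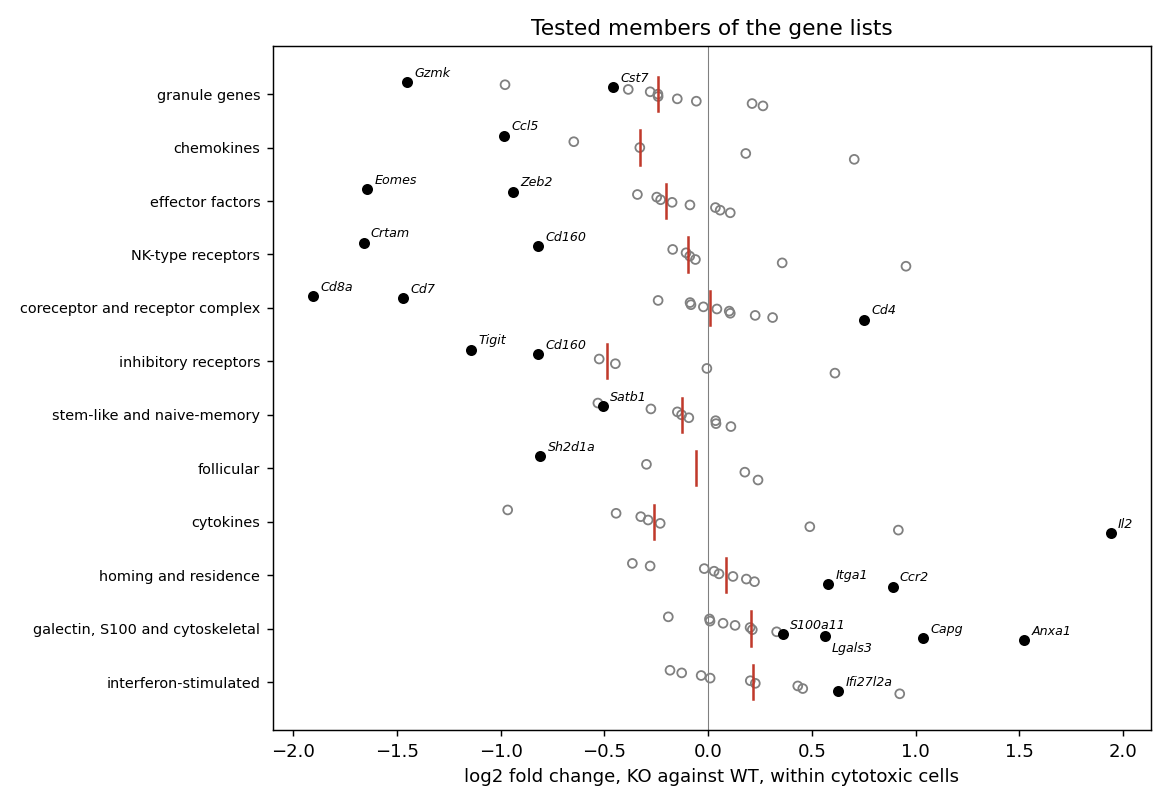
Log2 fold change (KO over WT, x axis) of every tested gene of the 12 lists (rows), with called genes in black and labelled, the rest as open circles, and a red line at each list's median. Called genes of the granule, chemokine, effector, killer receptor and inhibitory lists lie left of 0, and those of the galectin and S100 list lie right of it.

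Among cytokine genes 1 was called. Of 8 tested only Il2, the T cell growth factor, rose, from a median of 8.83 to 42.4 CPM (1.94 ± 0.31, adjusted p = 0.000425), and the list's median was -0.26. HT1 to HT6 spanned 11.9 to 73.5 CPM and WT mice 5.13 to 15.5 CPM, so the ranges overlapped. Ifng was at medians of 703 and 840 CPM (-0.29 ± 0.10, adjusted p = 0.155) and Tnf at 76.1 and 82.6 CPM (-0.23 ± 0.20, adjusted p = 0.685). Csf2 was at 0.92 ± 0.30 (adjusted p = 0.099) and passed without HT6 (1.11, adjusted p = 0.0433). Ltb was at -0.32 ± 0.11 (adjusted p = 0.105). It passed without HT4 (-0.45, adjusted p = 0.0135) and with no filter on low counts (-0.38, adjusted p = 0.0314). Lta was at -0.97 ± 0.32 (adjusted p = 0.114).

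Of the 10 homing and residence genes considered, 2 passed, both as rises (median 0.09). Ccr2, the receptor for monocyte chemoattractant proteins, rose from a median of 104 to 196 CPM without overlap (0.89 ± 0.15, adjusted p = 0.000818), with HT2 far above the others at 350.2 CPM. With 1 cell per clone and mouse it did not pass (0.36, adjusted p = 0.407). Itga1, the collagen-binding integrin CD49a, rose from 54.3 to 81.7 CPM (0.58 ± 0.15, adjusted p = 0.0339), a call lost under 8 of its 22 alternatives. Itgae was at medians of 177 and 156 CPM (0.12 ± 0.16, adjusted p = 0.813). Gpr183, an oxysterol receptor that guides cells within tissue, was at -0.37 ± 0.11 (adjusted p = 0.061). It passed without HT1 (-0.43, adjusted p = 0.0224) or HT9 (-0.41, adjusted p = 0.0251). With every mouse kept, Gpr183 passed with no filter on low counts (-0.42, adjusted p = 0.0136) and with no receptor or immunoglobulin genes (-0.37, adjusted p = 0.0483).

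Genes of galectins, S100 proteins and the cytoskeleton were the list with the most rises. Of 12 tested, 4 rose and none fell (median 0.21), where 1.32% of all tested genes rose and 1.58% fell. Capg, an actin-capping protein, ranged from 321 to 419 CPM in KO mice (median 361) and from 141 to 188 CPM in WT mice (median 179), at 1.03 ± 0.09 (adjusted p = 9.43e-08). Anxa1, the phospholipid-binding annexin, rose from 9.76 to 26.9 CPM with overlapping ranges (1.52 ± 0.28, adjusted p = 0.00148). S100a11 rose by 0.36 ± 0.08 (adjusted p = 0.00924) and Lgals3, the gene of galectin 3, by 0.56 ± 0.13 (adjusted p = 0.0119), both with overlapping ranges. Both calls were lost with 1 cell per clone (adjusted p = 0.116 and 0.0626), with equal numbers of cells per mouse (0.078 and 0.121) and without HT1 and HT2 (0.0741 and 0.0972). Interferon-stimulated genes gave 1 rise among 10 (median 0.22), Ifi27l2a at 0.63 ± 0.17 (adjusted p = 0.048), which 11 of 23 alternatives did not keep. Rtp4 was at 0.92 ± 0.30 (adjusted p = 0.099) and passed without HT3 (1.10, adjusted p = 0.0444).

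Outside the lists, the largest rises without overlap (log2 CPM of 5 or more on average) included several transcription factors. Asb2, a substrate receptor of a cullin ubiquitin ligase, ranged from 99.6 to 379 CPM in KO mice (median 169) and from 35.9 to 58.9 CPM in WT mice (median 54.1), the largest rise at 1.64 ± 0.19 (adjusted p = 3.81e-06). Ahr, the aryl hydrocarbon receptor, a sensor of dietary and microbial ligands, rose from a median of 44.3 to 129 CPM (1.42 ± 0.21, adjusted p = 0.00011) and did not pass with equal numbers of cells per mouse (1.06, adjusted p = 0.0735). Gata3, the factor of type 2 helper cells, rose from 26.7 to 51.9 CPM (1.02 ± 0.18, adjusted p = 0.00103), and Hic1, a repressor induced by retinoic acid in intestinal T cells, from 32.1 to 65.1 CPM (1.05 ± 0.18, adjusted p = 0.0009). HT2, the mouse with the fewest cytotoxic cells, was the highest KO mouse for Asb2, Ahr, Gata3 and Ccr2.

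Plac8, a cysteine-rich protein of leukocytes, was the most abundant of the others, at 398 to 817 CPM in KO mice (median 666) and 169 to 370 CPM in WT mice (median 210), with a log2 fold change of 1.39 ± 0.17 (adjusted p = 1.1e-05). The remaining rises by the same rule were Rexo5 at 1.29 ± 0.18 (adjusted p = 5.61e-05), Rcbtb2 at 1.15 ± 0.18 (adjusted p = 0.000279), Emp1 at 1.09 ± 0.21 (adjusted p = 0.00277), Podnl1 at 1.04 ± 0.17 (adjusted p = 0.000632) and Hilpda, a hypoxia-induced lipid droplet protein, at 1.01 ± 0.16 (adjusted p = 0.000423). Their KO ranges all lay above the WT ranges because the rule required it. Emp1 (0.46, adjusted p = 0.487) and Hilpda (0.63, adjusted p = 0.0873) did not pass with 1 cell per clone. Outside the rule, and chosen after their values were seen, Itsn1, a scaffold of endocytosis, rose from a median of 3.54 to 32.3 CPM (2.88 ± 0.40, adjusted p = 6.85e-05), and Ifitm3, an antiviral membrane protein, from 70.7 to 243 CPM (1.83 ± 0.26, adjusted p = 9.54e-05). The ranges of Ifitm3 overlapped, at 114 CPM in the lowest KO mouse and 117 CPM in the highest WT mouse.

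The falls by that rule began with Tff1, a trefoil peptide of mucous epithelium, at 0 CPM in HT1, HT2 and HT5 and up to 11.4 CPM in the other KO mice, against 27.1 to 75.3 CPM in WT mice (-3.37 ± 0.48, adjusted p = 9.54e-05). Its 431 UMIs lay in 243 cells. Next to Gzmk, Cd7 and Esm1 came Rgs16, a brake on chemokine receptor signalling, at -1.45 ± 0.28 (adjusted p = 0.00276), and Cxcr4, the receptor for CXCL12, from a median of 75.4 to 27.2 CPM (-1.37 ± 0.23, adjusted p = 0.000587). Socs3, an inhibitor of cytokine signalling through STAT3, fell from 124 to 60.2 CPM (-1.12 ± 0.17, adjusted p = 0.000196). Clec2i, a ligand of a killer cell lectin receptor, stood at -0.93 ± 0.16 (adjusted p = 0.000818) and the cell cycle kinase Cdk6 at -0.85 ± 0.17 (adjusted p = 0.00352). None of these overlapped between genotypes, which the rule required.

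A few changes chosen after their values were seen rested on few cells or showed what the means hide. Penk, the gene of the opioid peptide proenkephalin, was at a median of 16.9 CPM in KO and 163 CPM in WT mice (-2.82 ± 0.50, adjusted p = 0.00115), but its 1409 UMIs came from 135 cells, 1 of which held 299. The chemokine Ccl1 passed at 2.16 ± 0.49 (adjusted p = 0.0107) although KO mice spanned 0 to 324 CPM and 1 cell held 150 of its 541 UMIs. Fas, the death receptor, fell from a median of 121 to 51.2 CPM (-1.10 ± 0.19, adjusted p = 0.00101).

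Whether these genotype differences were larger in cytotoxic cells than elsewhere was tested within mice, as the difference of the KO effect between 2 subsets (limma). Against recirculating cells 1 of 8120 genes passed (0.0123%), and 647 had an unadjusted p under 0.05. That gene was Il10ra, the signalling chain of the interleukin 10 receptor, with an effect of -0.76 in cytotoxic and 0.88 in recirculating cells, a difference of -1.64 ± 0.21 (adjusted p = 0.0368). Leaving out any 1 of HT1, HT2, HT4, HT5, HT6, HT7, HT9, HT10 or HT12 ended the call. Within cytotoxic cells alone Il10ra was at -0.69 ± 0.27 (adjusted p = 0.195) and passed without HT9 (-0.84, adjusted p = 0.0272). Against Th17 cells 0 of 6510 genes passed by limma (0%), with 648 at an unadjusted p under 0.05. So for Ccl5, Gzmk, Cd4, Tigit and Capg no difference between the subsets' KO effects was shown, which does not show that they are alike. Unnamed 1 and cycling cells were not part of these tests.

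Eomes was found in a part of the cytotoxic cells. An Eomes UMI was found in 653 of 3037 cytotoxic cells of WT mice (21.5%, 10.0% to 34.8% by mouse) and in 61 of 818 of KO mice (7.46%, 2.90% to 10.5% by mouse). After thinning to 1500 UMIs the shares were 16.1% ± 7.43 and 5.33% ± 1.64, with at most 2.72% in any other subset of either genotype and 0.0779% to 0.0894% in Th17 cells. The split by an Eomes UMI was chosen after the data were seen and misses cells whose Eomes RNA was not caught, so the following is description only. Median depth by mouse was 2016 to 2482 UMIs in WT cells with and 2340 to 2798 without the UMI.

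In WT mice the cells with an Eomes UMI had 1038 ± 293 CPM of Gzmk against 258 ± 44.3 in those without (SD, n = 6 mice), and 334 ± 144 against 82.0 ± 27.7 of Esm1. They also held more Klrg1, a receptor of late effectors (92.2 ± 44.6 against 21.1 ± 5.01), Cd27, a costimulatory receptor of less differentiated cells (115 ± 25.0 against 26.9 ± 12.9), Il10ra (115 ± 25.7 against 33.7 ± 10.8) and Sh2d1a (365 ± 56.4 against 134 ± 24.9). The heat shock gene Hspa1a stood at 3527 ± 1073 against 1399 ± 461 CPM. These genes were picked among those whose 6 mice did not overlap between the 2 kinds of cells, so the lack of overlap is no result about them. Of the 48 Cxcr5 UMIs in all cytotoxic cells, 39 lay in the 714 cells with an Eomes UMI, and of the 464 Igkc UMIs, 290 did.

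Cells without an Eomes UMI held more of the residence genes Itgae, Itga1 and Cxcr6. Itgae was at 199 ± 29.5 CPM there against 4.53 ± 4.60 CPM with the UMI, Itga1 at 64.2 ± 3.18 against 12.9 ± 12.6, and Cxcr6, the receptor for CXCL16, at 484 ± 76.6 against 161 ± 82.1. Gzma followed them, at 1142 ± 560 against 227 ± 64.9 CPM, as did Cd160 (290 ± 35.2 against 87.9 ± 52.5), Capg (200 ± 32.1 against 48.4 ± 35.1) and Plac8 (277 ± 78.8 against 69.4 ± 32.3). Ccr2, also of the homing and residence list, ran the other way, at 89.1 ± 26.3 CPM without and 197 ± 40.0 CPM with the UMI. Itgae, Itga1, Gzma, Capg and Plac8 were picked among genes without overlap too, so that is no result about them either. Nkg7, at 2532 ± 244 and 2539 ± 173 CPM, did not separate the 2 kinds of cells. Of the 3427 Gzmk UMIs in all cytotoxic cells, 1617 came from the 714 cells with an Eomes UMI and the rest from cells without.

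Leaving out every cell with an Eomes UMI, a fit added after seeing the data, kept the main differences between genotypes in the cells that remained. There Gzmk was at -1.23 (adjusted p = 1.4e-05), Ccl5 at -0.95, Cd7 at -1.49, Cd8a at -1.99, Tigit at -1.15, Cd4 at 0.69, Capg at 0.87 and Plac8 at 1.26. Gzma passed in this fit (-1.11, adjusted p = 0.021) and Sh2d1a did not (-0.60, adjusted p = 0.0502). In all, 150 genes were called, 135 of them among the 191.

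Each T cell clone carries 1 rearranged receptor, so cells of a mouse with the same receptor are usually taken to descend from 1 transferred cell. A clonotype was deposited for 3319 of the 3855 cytotoxic cells (86.1%), 687 in KO and 2632 in WT mice. Counted within mice they formed 1353 clones, of which 910 held a single cytotoxic cell, 443 at least 2 and 46 at least 10. Of those 46 large clones, 42 were in WT mice. Of the 1352 clonotypes with cytotoxic cells, 1 was found in 2 mice.

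The receptor sequences below belong to the large clones on which the next paragraphs turn. They are the nucleotide sequences of CDR3, the loop that the joining of gene segments creates and that touches antigen, from the authors' deposited annotation. Lower case bases match the end of a V segment or a J segment of GENCODE vM21, and capitals are the bases between, which match neither. The V segments were Trbv3 for clonotypes 1 and 32, Trbv19 for 2, Trbv20 for 6, Trbv30 for 7 and 12, and Trbv13-2 for 46. Clonotype 19 matched Trbv2 and Trbv5 alike, and Trbv5 had the most UMIs in its cells (7). All of these lie on chromosome 6 between 41047340 (start of Trbv2) and 41281990 (end of Trbv30) of GRCm38.
Clonotype 1 of HT7 (WT), TRB: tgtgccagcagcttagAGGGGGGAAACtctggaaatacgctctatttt
Clonotype 2 of HT11 (WT), TRB: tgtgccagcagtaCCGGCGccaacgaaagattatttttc
Clonotype 6 of HT11 (WT), TRB: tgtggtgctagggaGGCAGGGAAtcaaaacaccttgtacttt
Clonotypes 7 and 12 of HT7 (WT), TRB: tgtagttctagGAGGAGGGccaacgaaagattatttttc
Clonotype 46 of HT11 (WT), TRB: tgtgccagcggGCAGtatgaacagtacttc
Clonotype 32 of HT3 (KO), TRB: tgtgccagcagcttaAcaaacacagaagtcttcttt
Clonotype 19 of HT4 (KO), TRB: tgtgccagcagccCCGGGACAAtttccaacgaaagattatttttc

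Large clones differed in which cytotoxic genes they held. Clonotype 1 of HT7, with 11 bases between its segments, had 89 cytotoxic cells at 1264 CPM of Gzma and 448 CPM of Itgae with no Eomes UMI. In the same mouse, clonotype 7 had 86 cytotoxic cells at 548 CPM of Eomes, 420 CPM of Gzmk, 5.12 CPM of Gzma and no Itgae UMI. Clonotype 12, which has the same TRB sequence as clonotype 7 and no single TRA chain deposited, had 65 cytotoxic cells at 393 CPM of Eomes and no Gzma UMI. Clonotype 46 of HT11 (25 cytotoxic cells) also held Eomes, at 504 CPM, but had 368 CPM of Klrg1 against 35.9 and 28.6 CPM in clonotypes 7 and 12, and no Cd8a UMI against 143 and 85.7 CPM. Clonotype 6 of HT11 (84 cells) lay between, at 70.2 CPM of Eomes, 66.1 CPM of Gzma and 2742 CPM of Gzmb.

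Over the 46 clones, 26 had no Eomes UMI and 14 had at least 100 CPM of Eomes. Gzma had a median of 673 CPM (0 to 5076) in the former and 24.4 CPM (0 to 1425) in the latter. Across the 46 clones, as a description with no test, the Spearman rank correlation of Eomes with Gzma was -0.50 (Pearson -0.52 on log2(CPM + 1)) and that of Eomes with Itgae -0.65. Clones share mice, and small clones have few UMIs. Ccl5 varied from 6198 to 37065 CPM between clones and Nkg7 from 2023 to 4014 CPM. Both are markers of the cluster from which these cells were taken, so their presence in every large clone was not a separate finding. Cd8a ranged up to 549 CPM, with no UMI in 13 clones. The 4 large clones of KO mice (24, 19, 15 and 13 cytotoxic cells, in HT3, HT4, HT5 and HT4) all lacked an Eomes UMI and had 327 to 1026 CPM of Gzma.

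**Figure D4:**
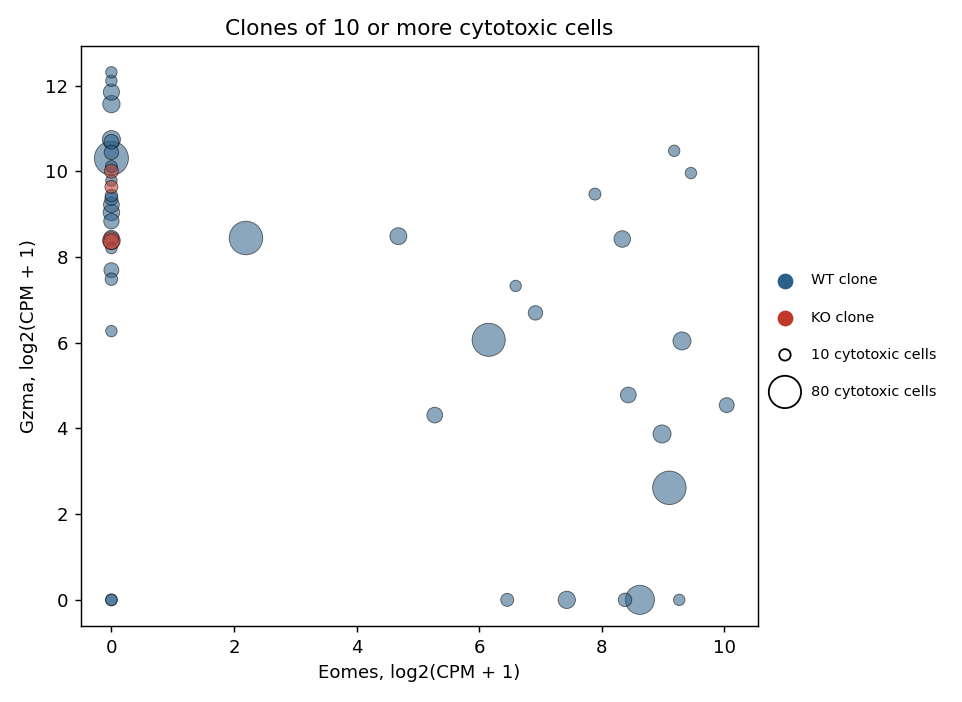
The 46 clones of at least 10 cytotoxic cells, with Eomes on the x axis and Gzma on the y axis, both as log2(CPM + 1) over the clone's cytotoxic cells. Colour gives the genotype and point size the number of cytotoxic cells, and clones high in Eomes are mostly low in Gzma (median 24.4 CPM) while those at 0 have a median of 673 CPM.

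In 5 pairs of large clonotypes within a mouse, the 2 shared an identical TRA or TRB sequence, and in each pair the same V segments had the most UMIs in both. Besides clonotypes 7 and 12 these were 6 and 105 in HT11, 61 and 219 in HT8, 85 and 160 in HT8, and 73 and 139 in HT9. Some of the top V segments rested on few UMIs: Trbv12-1 on 2 in clonotype 61, Trbv20 on 4 in 105 and Trav7-1 on 3 in 139. The top segment did not always match the deposited CDR3. In clonotype 7 the TRA sequence matched Trav1, while Trav9-4 had the most UMIs. Neither member held an Eomes UMI in 3 pairs, and Eomes was at 548 and 393 CPM in clonotypes 7 and 12 and at 70.2 and 0 CPM in 6 and 105. Gzma was at 525 and 4427 CPM in 73 and 139 and at 206 and 295 CPM in 85 and 160. No TRB sequence of a large clone occurred in 2 mice. Counting cells of a mouse with the same TRB as 1 clone ended none of the calls between genotypes given next.

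Cytotoxic cells kept company with their own kind within clones. For each cytotoxic cell, the other cells of its clone in that mouse are its partners, of any subset. Averaged over mice, 41.0% ± 25.1 of partners were cytotoxic, against 20.5% ± 13.9 of the other cells of the mouse with a clonotype (SD, n = 12). The difference was 20.4 ± 13.6 percentage points and was positive in 10 of 12 mice (exact sign-flip test over mice, two-sided p = 0.00195; the smallest possible is 0.000488). HT2 and HT6 were the exceptions, each 1.06 points below. Since large clones dominate pairs of cells, each clone was also given the same weight, which left a difference of 7.95 ± 7.18 points (11 of 12 mice, exact p = 0.00244). Cells of a clone share receptor segments, and whether these entered the authors' clustering is not given. The part of those segments in the difference was not tested.

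Most clones with a cytotoxic cell and at least 2 cells in all also held other subsets. Among these, 95.9% ± 2.34 in KO and 73.1% ± 2.71 in WT mice also held cells of another subset, with ranges of 93.5% to 100% and 70.6% to 77.9% that do not overlap (exact permutation p = 0.00216, the smallest possible, adjusted p = 0.00541 over 5 measures). A clone with a single cytotoxic cell must hold another subset to be counted here, so this measure depends on the number of cytotoxic cells by construction. Clones counted were 19 to 62 per KO mouse and 68 to 102 per WT mouse. Clones of at least 2 cytotoxic cells were 1 to 28 and 48 to 69. Cytotoxic partners made up 1.57% to 39.3% (mean 18.9% ± 13.2) in KO and 55.8% to 73.0% (63.0% ± 6.96) in WT mice (exact p = 0.00216, adjusted p = 0.00541). Both measures move with how many cells of a mouse are cytotoxic, 2.64% to 15.5% of the other cells with a clonotype in KO and 25.1% to 45% in WT mice. With that share subtracted, partners were still 10.5 ± 11.4 points above it in KO and 30.4 ± 6.31 in WT mice (exact p = 0.00866), which does not remove every effect of the number of cells, and its part was not tested further.

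**Figure D5:**
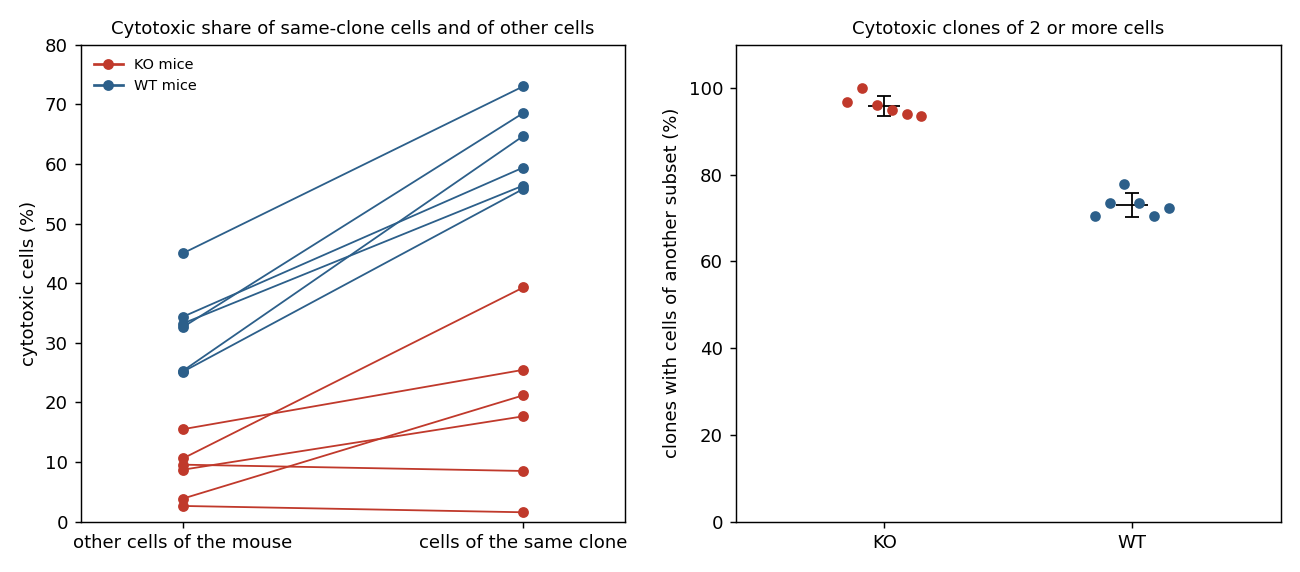
Left, the share of cytotoxic cells (percent) among other cells of the mouse and among cells of the same clone, 1 line per mouse. Right, the share of clones of at least 2 cells that also hold another subset, per mouse with mean ± SD (n = 6 each), 95.9% in KO and 73.1% in WT mice.

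Of the partners that were not cytotoxic, cycling cells were over-represented and regulatory cells under-represented, in a comparison added after the data were seen. Cycling cells made up 16.7% ± 10.6 of such partners against 8.57% ± 3.13 of the non-cytotoxic cells of the mouse (higher in 10 of 12 mice, exact sign-flip p adjusted over 6 subsets = 0.00586). Regulatory cells made up 0.253% ± 0.417 against 2.19% ± 1.38 (higher in 1 of 12 mice, adjusted exact p = 0.00586) and recirculating cells 25.4% ± 11.4 against 30.8% ± 12.5 (higher in 3 of 12, adjusted exact p = 0.0166). Unnamed 1 (29.8% against 24.3%, adjusted exact p = 0.0549), Th17 cells (12.1% against 17.0%, adjusted exact p = 0.14) and unnamed 3 (15.7% against 17.2%, adjusted exact p = 0.483) did not pass, though unnamed 1 (adjusted exact p = 0.0156) and Th17 cells (adjusted exact p = 0.0176) did without HT6.

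Single clones show both patterns. Clonotype 1 of HT7 counted 235 cells, of which 89 were cytotoxic, 56 recirculating, 26 Th17, 26 in unnamed 1, 28 in unnamed 3 and 10 cycling. Clonotype 7 of the same mouse counted 91 cells, 86 cytotoxic and the other 5 all cycling, and clonotype 12 held 65 cytotoxic and 2 cycling cells. Clonotype 2 of HT11 held 86 cytotoxic cells of 139, with 24 cycling and 17 recirculating. The median cytotoxic share was 95.2% over the 14 clones with at least 100 CPM of Eomes and 76.9% over the 26 with no Eomes UMI, and 7 of the 46 clones were cytotoxic throughout.

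A difference between genotypes in clonal expansion was not shown once the number of cytotoxic cells was made equal. The share of cytotoxic cells in clones of at least 2 cytotoxic cells was 32.7%, 5.71%, 51.4%, 65.5%, 59.5% and 41.4% in HT1 to HT6 and 84.9%, 80.6%, 79.3%, 71.7%, 83.0% and 61.7% in HT7 to HT12 (exact p = 0.00433, adjusted p = 0.00722). With 35 cytotoxic cells taken from every mouse, an alternative added later, it was 27.5% ± 13.3 and 39.0% ± 12.1 (exact p = 0.152). The expected number of clones among 35 cells was 28.9 ± 3.22 and 26.1 ± 4.06 (adjusted exact p = 0.279). Simpson's index, the share of cell pairs in 1 clone, was 1.90% ± 1.26 and 3.13% ± 2.70 (adjusted exact p = 0.364), highest in HT7 at 7.79%, the mouse of clonotypes 1, 7 and 12.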

How the data were processed

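The deposited files hold raw UMI counts (11971 genes) and an annotation of each cell: mouse, genotype, cluster, subset, receptor chains, mitochondrial percent and doublet score, all deposited by the authors. Cell Ranger 3.1.0, Seurat 3.1.5 and the builds GRCm38 and mm10 are named, per the submitters' processing notes. Their cell filter, strand setting and whether receptor segments entered the clustering are not given in the sources used here. Doublets were not called anew; the highest doublet score of a cytotoxic cell was 0.298.

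UMIs of cytotoxic cells were summed per mouse (at least 20 cells) and entered edgeR 4.0.16 under R 4.3.3 (quasi-likelihood test, TMM, filterByExpr, two-sided, Benjamini-Hochberg over all genes, adjusted p under 0.05). A standard error is the log2 fold change over the square root of F. Differences between subsets were tested with limma 3.58.1 on log2 CPM (prior count 2), clone and depth measures with exact permutation over the 12 mice (SciPy 1.17.1, NumPy 2.4.6). Cells were thinned analytically to 1500 UMIs. The labels do not say that mice are separate experiments, so p-values measure the spread between these mice. Scripts were tested on simulated data. DESeq2 1.42.0 was an alternative.

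Named genes were the markers, the 15 genes with the highest ratio to the next subset (at least 100 CPM), the 12 largest rises and 12 largest falls without overlap (mean log2 CPM at least 5, receptor segments, immunoglobulin and unnamed gene models passed over) and up to 4 members of each of 12 lists (138 genes, 134 in the table) with the smallest p. Of 38 markers of other cells and T cells 23 were in the table, 2 under older symbols. The result of 1 gene is not reported here, and the homing and residence list leaves it out. Members, lists and rules were chosen with earlier results of these data known.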

Additional observations from a re-analysis of the deposited data

Results flagged for a closer look

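Single mice stood apart from the other 5 of their genotype in 14 of 148 groups of 6 values examined, where chance alone gives about 7 (5%). HT2, which had 51 cytotoxic cells, accounted for 5 of them: it was highest among KO mice for Asb2 (378.6 CPM, others 99.6 to 199), Emp1 (189 CPM, others 47.1 to 98.2), Gata3 (123 CPM, others 45.3 to 65.4) and Ccr2 (350.2 CPM, others 160 to 214) and lowest for Ccl5 (5102 CPM, others 8183 to 9836). Without HT2, 156 genes were called, 148 of them among the 191, and these 5 were all still called.

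Among the other KO mice, HT1 was lowest for Gzmk (60.1 CPM, others 148 to 199), HT4 highest for Cxcl10 (168 CPM, others 32.1 to 60.1), HT3 highest for Lag3 (64.2 CPM, others 9.47 to 29.5) and HT5 highest for Ifi27l2a (422 CPM, others 282 to 334). Among WT mice, HT8 was lowest for Asb2 (35.9 CPM, others 50.4 to 58.9) and highest for Klrk1 (69.6 CPM, others 10.2 to 26.1), HT11 highest for Trat1 (349.9 CPM, others 233 to 272), HT12 lowest for Nkg7 (2100 CPM, others 2572 to 2700) and HT7 lowest for Klrd1 (23.9 CPM, others 62.9 to 73.4).

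The genotype effect on Il10ra differed between cytotoxic and recirculating cells (-1.64 on the log2 scale, limma adjusted p = 0.0368), a call that leaving out any 1 of 9 mice ended.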

How the results depend on the processing

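No paired analysis was possible because the mice are numbered 1 to 12 across both genotypes, so the groups share no replicate number. Counts of called genes were 190 with DESeq2 size factors, 200 with the DESeq2 test (166 of them among the 191), 185 in cells of at least 1500 UMIs, 179 without cells of doublet scores above 0.1215, 205 without receptor segments and immunoglobulin genes, and 141 to 197 (70 to 89 higher, 71 to 114 lower) with each mouse left out. Without a filter on low counts 307 genes were called, 214 of them lower in KO mice. With 51 cells from every mouse 36 were called among 1839 testable genes, 18 in each direction, and 33 of them were among the 191. With 1 cell per clone and mouse 114 were called among 4007 testable genes, 49 higher and 65 lower, and 84 of them were among the 191. Both leave fewer cells. Without HT1 and HT2, added after seeing the data, 138 were called, 69 of them lower.

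Of 39 named genes that passed, 26 did so under every alternative run on them, and none of the named genes reversed. The 27 named genes that did not pass still did not in 568 of their 603 alternatives. The difference from recirculating cells gave 0 to 1 genes with a mouse left out, and that from Th17 cells 0 to 7 (1 without HT1, 7 without HT2) and 8 with no filter. For clones, the difference in the share in clones of at least 2 cytotoxic cells was -38.7 to -26.8 points with a mouse left out and -11.6 with equal numbers of cells (exact p = 0.152). Partners that were Th17 cells differed by -6.66 to -3.04 points and unnamed 1 by 3.73 to 6.79 points with a mouse left out. The depth difference ranged from -326.3 to -201 UMIs and passed without HT6 (adjusted exact p = 0.0455). Of 72 alternative shares of cells with a UMI, 37 moved by more than the spread between mice, as thinning sets their level. With 51 cells the rarest genes of HT2 rest on few UMIs.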
